A study of Mus musculus with 4 samples.

Results

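Electrically stimulated ganglia were compared with unstimulated ganglia at 11 days in vitro (DIV), 1 day after the stimulus. The genes described are those with a mean of at least 1000 reads in the 2 libraries, which were 1219 of the 23282 gene rows. Dorsal root ganglia of C57BL/6 mouse embryos at embryonic day 13 had been explanted onto a Matrigel coating, kept in growth medium to DIV 8 and then moved to myelination medium. The electrical stimulation (ES) group received 20 Hz at 50 mV/mm for 1 h on DIV 10, and the control group received no stimulation. Each library held the pooled RNA of 3 explants, so the comparison rests on 2 of the 4 libraries of the series, 1 per group, and nothing below has a replicate check or a p-value. The other 2 libraries of the series, made on DIV 19 from the same 2 groups, are given beside these for scale. Where a sentence gives 2 values for a day, control comes first. What ES did and how any 2 cultures or libraries differ cannot be told apart here.

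A dorsal root ganglion holds the cell bodies of sensory neurons, the satellite glia around them, Schwann cells and connective tissue. In explant culture the neurons send out axons, Schwann cells follow them, and in myelination medium the Schwann cells wrap the larger axons in a lipid-rich sheath. Cells also keep defence genes for metals and oxidants: metallothioneins bind zinc and copper, ferritin stores iron, and the transcription factor NRF2 switches on enzymes that make and use glutathione and NADPH.

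The control library held 6197537 reads and the ES library 5782834, and the 1219 genes took 62.4% and 59.3% of them. Levels are given as CPM, reads scaled to a common library size with TMM over the 4 libraries, and a ratio is ES over control. By size alone, 109 genes were at least 2-fold higher in ES (8.94% of the 1219) and 129 were at least 2-fold lower (10.6%). The median log2 ratio of all 1219 genes was −0.08. Total counts with no further scaling moved that median by 0.13 and gave 137 genes higher and 96 lower. The scatter of the ratio narrowed with reads, as the plot of scatter by number of reads shows. Of genes with 50 to 200 mean reads 75.8% differed 2-fold or more, of genes with 500 to 1000 reads 37.5%, and of the 115 genes with 5000 or more reads 12.2%. No gene of the 1219 was at 0 in either library. The genes just inside the minimum were Rad9a, Soga3 and Ptbp3, with mean reads of 1000.5 to 1001.5 and ratios of 0.948, 2.42 and 1.12. Just outside were Ppp1r18, Ddx3y and Zfp91, with mean reads of 998 to 999.5 and ratios of 0.346, 2.33 and 0.404.

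**Figure D1:**
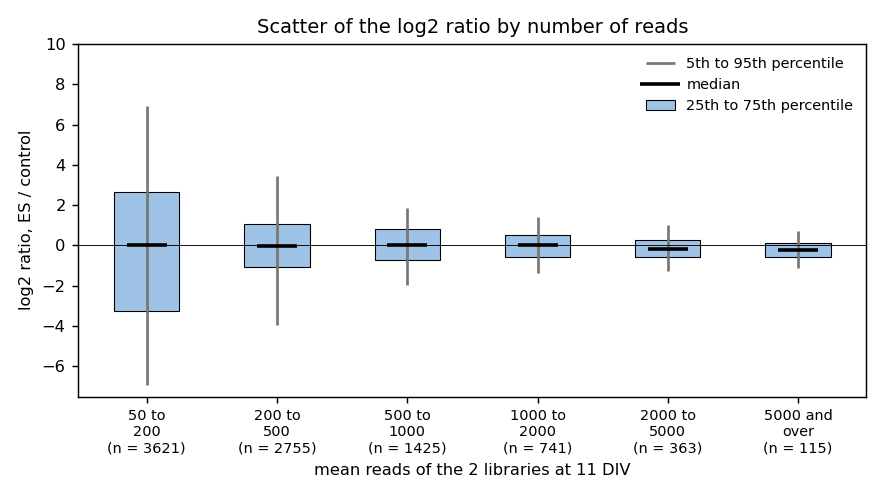
Log2 ratio of ES over control at 11 DIV (vertical axis) in classes of mean reads (horizontal axis), with the median, the 25th to 75th percentile as a box and the 5th to 95th percentile as a line. In the class of 50 to 200 reads the line runs from −6.94 to 6.92, and at 5000 reads and over it runs from −1.11 to 0.69.

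Read counts differed between the libraries far more than independent reads would. For each gene the squared difference was taken relative to counting error. The spread factor is the median of these values divided by the median of a chi-square with 1 degree of freedom. It was 208 over the 2368 genes with 500 to 3000 mean reads. Intervals in parentheses below are exact 95% intervals on counts divided by this factor. They compare these libraries and not the treatments. A stricter rule, called the spread rule, asked for 2-fold and a 99% interval that excluded equality. It was passed by 10 genes that were higher in ES (0.82% of the 1219) and 21 that were lower (1.72%). The factor itself was larger for abundant genes, 197 at 1000 to 2000 reads, 337 at 2000 to 5000 and 1022 at 5000 and over. With a factor per class only 2 genes stayed higher, Nrxn2 and Itih5, and 5 stayed lower, Mt1, Mt2, Prdx1, Rrbp1 and Slc48a1. With total counts and no further scaling 6 stayed lower, Mt1, Mt2, Prdx1, Hmox1, Slc3a2 and Esd, and all 10 higher genes were kept.

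**Figure D2:**
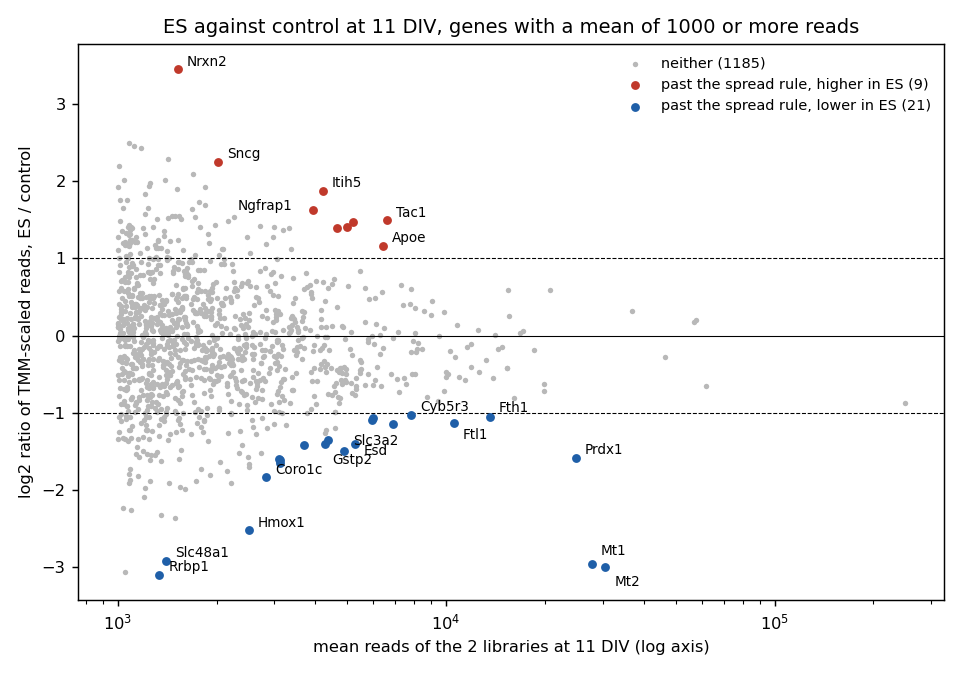
Log2 ratio of ES over control at 11 DIV (vertical axis) against mean reads (horizontal log axis) for the genes reported, with dashed lines at 2-fold. Points past the spread rule are coloured and most are named. Mt1 and Mt2 lie near −3 at the right, among the genes with the most reads.

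The control library at 11 DIV was the highest of the 4 libraries in 460 of the 1219 genes (37.7%), and the ES library in 309 (25.3%). These genes were chosen on reads at 11 DIV, and those lower in ES have control above ES by the rule. The counts among called genes are thus partly fixed in advance. Control was the highest of 4 in 108 of the 129 genes 2-fold lower in ES. The ES library was the highest in 78 of the 109 genes 2-fold higher. Of the 21 genes lower by the spread rule the control library was highest in 19, and in 16 of these it was at least 2-fold above each of the other 3. Of the 10 genes higher by the spread rule, the control library was the lowest of 4 in 6, and the ES library was the highest of 4 in 6. The ribosomal RNA precursor Rn45s took 5.18% of the reads in the control library and 2.65% to 3.08% in the others. The part that these differences between libraries play in the results below was not tested.

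Markers matched the labelled tissue. Prph, an intermediate filament of peripheral neurons, stood at 667 CPM in control and 1192 in ES, and Sox10, a transcription factor of Schwann and satellite glia, at 721 and 626. Markers of other cell types were low, except those of fibroblasts. The 12 fibroblast markers summed to 4810 CPM in control and 6468 in ES. Of them 4, all matrix genes, had a mean of at least 1000 reads. No member of the other 9 marker lists had such a mean. The 16 macrophage markers summed to 178 and 77.1 CPM, with 6 and 9 of them at 0. The 12 perineurial markers summed to 427 and 300 CPM with 6 and 6 at 0. Dhh, which is not specific to perineurial cells, gave 220 and 87.3 CPM of those sums. The 11 pericyte and smooth muscle markers summed to 133 and 326 CPM with 7 and 6 at 0. The 12 endothelial markers summed to 105 and 60.9 CPM with 7 and 10 at 0. The 8 melanocyte markers summed to 111 and 174 CPM with 6 and 6 at 0. Ednrb, which is not specific to melanocytes, gave 97.4 and 156 CPM of those sums. The 10 cartilage markers summed to 99.6 and 29.7 CPM with 8 and 8 at 0. The 12 markers of central glia summed to 48.7 and 18.4 CPM with 8 and 11 at 0. Skeletal muscle markers summed to 14.0 and 17.7 CPM, with 12 and 11 of 14 at 0. The 10 erythroid markers, which red blood cells leave behind, had 293 reads in control and 3 in ES, with 7 and 9 at 0, and none at 19 DIV. In pooled tissue fewer cells of a type and less RNA per cell cannot be told apart.

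Metal and iron genes were lower in the ES library. Of 7 members at 1000 reads, 5 were 2-fold lower, 0 higher and 2 neither, and all 5 passed the spread rule. Their median log2 ratio was −1.13, against −0.08 for all genes. Mt2, a metallothionein, stood at 9343 CPM in control and 1161 in ES, and on DIV 19 at 684 and 657. Mt1, its neighbour on chromosome 8, stood at 8456, 1087, 900 and 945 CPM in the same order. For both genes the control library at 11 DIV alone was high, 8.05-fold and 7.78-fold above the next library, and the other 3 lay close together. The ratio at 11 DIV was 0.124 for Mt2 (0.0838 to 0.179) and 0.129 for Mt1 (0.0854 to 0.188).

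Genes of heme and iron handling were also highest in the control library at 11 DIV. Hmox1, heme oxygenase, which breaks heme down and frees its iron (protein-coding, chr8:75093618-75100593 in GRCm38.p6), had 4258 reads in control and 754 in ES, and on DIV 19 it had 146 and 224. Its ratio was 0.173 (0.0397 to 0.536), and both libraries at 11 DIV lay above both at 19 DIV. Fth1, the ferritin heavy chain, stood at 3148 CPM in control and 1512 in ES, and on DIV 19 at 1174 and 1834. Ftl1, the light chain, stood at 2480, 1133, 709 and 946 CPM. Ferritin was thus highest in the control library at 11 DIV, and the ratios were 0.480 (0.325 to 0.699) and 0.457 (0.291 to 0.703). Slc48a1, a heme transporter of endosomes and lysosomes outside this list, had 2474 reads in control and 333 in ES, and on DIV 19 324 and 1651. Its ratio was 0.132 (0.00978 to 0.668), and its exons overlap Hdac7 on the other strand, which had 677 and 287 reads.

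Promoters are shown for Mt2 and Prdx1, the metallothionein and the peroxidase with the most reads among the lower genes, and for Tac1 among the higher. Each is the 250 bases before a RefSeq start on GRCm38.p6, 5′ to 3′ on the gene's strand. Capitals mark matches on either strand to the core of the metal response element (TGCACNC or TGCGCNC) or of the antioxidant response element (TGACNNNGC), which the factors MTF1 and NRF2 are known to bind. Mt2 lies at chr8:94172368-94172617 (plus strand), Prdx1 at chr4:116685349-116685598 (plus strand) and Tac1 at chr6:7554811-7555060 (plus strand).
Mt2: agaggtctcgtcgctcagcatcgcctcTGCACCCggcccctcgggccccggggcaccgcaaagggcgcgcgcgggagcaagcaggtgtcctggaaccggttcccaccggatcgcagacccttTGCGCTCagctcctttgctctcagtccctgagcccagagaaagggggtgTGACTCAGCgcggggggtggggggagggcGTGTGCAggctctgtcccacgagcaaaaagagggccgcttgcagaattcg
Prdx1: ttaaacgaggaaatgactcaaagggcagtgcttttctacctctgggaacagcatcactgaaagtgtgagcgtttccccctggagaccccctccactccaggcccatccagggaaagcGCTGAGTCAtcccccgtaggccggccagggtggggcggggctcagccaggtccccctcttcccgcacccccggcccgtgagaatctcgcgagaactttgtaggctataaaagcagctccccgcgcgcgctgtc
Tac1: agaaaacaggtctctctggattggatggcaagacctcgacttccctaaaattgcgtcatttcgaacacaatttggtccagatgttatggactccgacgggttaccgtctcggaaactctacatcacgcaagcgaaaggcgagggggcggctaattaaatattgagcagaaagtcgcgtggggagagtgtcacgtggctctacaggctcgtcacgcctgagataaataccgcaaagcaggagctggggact

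The Mt2 window held 3 metal response cores, which 1.26% of all 32851 promoters in the table reached or passed, and 1 antioxidant response core. The Prdx1 window held 1 antioxidant response core, the Tac1 window neither, and the Mt1 window 1 metal response core 16 bases before the window's end. That Mt1 window, chr8:94178839-94179088, lies partly within the Mt1 gene, which starts at 94178883. It is thus not the sequence before that start, and other Mt1 sequence was not searched. No matches in capitals overlapped. Of the 21 genes lower by the spread rule, 17 had 22 promoters in the table, and 5 of these (22.7%) held a metal response core and 2 (9.09%) an antioxidant response core. The shares of all promoters were 21.4% and 10.2%, and of the 1198 promoters of the 1219 genes 30.5% and 14.3%. With 50 bases after the start included, a window chosen after seeing the data, 4 of the 22 (18.2%) held an antioxidant response core, against 12.4% of all promoters and 17.3% of the promoters of the 1219 genes. A match is a run of letters and not a measured binding site.

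Glutathione and NADPH enzymes were lower in the ES library. Of 14 members of the list of NRF2 and glutathione enzymes at 1000 reads, 10 were 2-fold lower, 0 higher and 4 neither. Of all genes 10.6% were lower and 8.94% higher. The list median log2 ratio was −1.31, and 4 passed the spread rule: Esd, Pgd, Gstp1 and Gstp2. The rows Gstp1 and Gstp2 are near-identical, as given below, so these counts may hold the same reads more than once. The control library was the highest of 4 in 11 of the 14. Esd, S-formylglutathione hydrolase, stood at 1315 CPM in control and 494 in ES, and on DIV 19 at 169 and 170. Pgd, which makes NADPH in the pentose phosphate pathway, stood at 815, 258, 246 and 235 CPM. The control library at 11 DIV was the highest for both, and for Pgd the other 3 lay close together. Their ratios were 0.376 (0.188 to 0.712) and 0.317 (0.118 to 0.753).

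The glutathione transferases Gstp1 and Gstp2 had 6245 and 6183 reads in control and 2492 and 2382 in ES. In all 4 libraries the 2 rows differed by under 5%, so they may count the same reads and are uncertain as single genes. Their ratios were 0.390 and 0.377. Slc7a11, the cystine importer that feeds glutathione synthesis, had 3699 reads in control and 1271 in ES, with a ratio of 0.336 (0.110 to 0.881) that did not pass the spread rule. Taldo1, an enzyme of the pentose phosphate pathway, had 6363 and 2829 reads and a ratio of 0.435 (0.212 to 0.848), which did not pass it either. Tkt, the transketolase of that pathway, had 1018 and 1044 reads and a ratio of 1.00 (0.230 to 4.41). Members of the pathway thus differed: of its 4 members at 1000 reads, 2 were 2-fold lower and 2 neither.

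Peroxiredoxins were split. Of 11 members of the peroxiredoxin and thioredoxin list, 4 were 2-fold lower (Prdx1, Srxn1, Prdx6 and Txnrd1), 1 higher (Prdx2) and 6 neither. The median log2 ratio was 0.04, but −1.22 over members with 2000 reads and −0.80 with both libraries thinned to the smaller total. Prdx1, a peroxidase that removes hydrogen peroxide, stood at 6401 CPM in control and 2128 in ES, and on DIV 19 at 551 and 666. The ES library at 11 DIV was thus below the control and above both libraries of 19 DIV. Its ratio was 0.333 (0.244 to 0.447). Srxn1, the sulfiredoxin that repairs overoxidised peroxiredoxins, stood at 1040, 432, 234 and 224 CPM, with a ratio of 0.415 (0.195 to 0.834), and did not pass the spread rule. Prdx2 had 492 reads in control and 1591 in ES, a ratio of 3.16 (0.674 to 24.4), and overlaps Junb on the other strand. Sod1, superoxide dismutase, had 5920 and 3480 reads and a ratio of 0.575 (0.295 to 1.09).

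The integrated stress response, which raises amino acid transporters and synthetases when translation is held back, had the third list median on this side. Of 9 members at 1000 reads, 5 were 2-fold lower (Slc3a2, Atf5, Slc7a11, Nars and Atf4), 0 higher and 4 neither, with a median of −1.01, and 2 passed the spread rule. Slc3a2, the heavy chain of several amino acid transporters, stood at 1236 CPM in control and 439 in ES, and on DIV 19 at 264 and 610. Atf5, a transcription factor of the response, stood at 1392, 664, 617 and 339 CPM. The control library at 11 DIV was again the highest in both. Their ratios were 0.355 (0.170 to 0.696) and 0.477 (0.260 to 0.847). Atf5 shares exon sequence with Nup62 on the other strand, which had 914 and 487 reads. Cdkn1a, the p53 target p21, which halts the cell cycle, stood at 1626, 737, 474 and 510 CPM, a ratio of 0.453 (0.256 to 0.776), and the other 3 members of its list at 1000 reads were within 2-fold. Over the metal, redox, pentose phosphate and integrated stress lists together, 40 genes were at 1000 reads. Of these 22 (55.0%) were 2-fold lower and 1 (2.50%) higher, against 10.6% and 8.94% of all genes, and the control library was the highest of 4 in 27. The near-identical rows Gstp1 and Gstp2 both count among the lower genes.

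**Figure D3:**
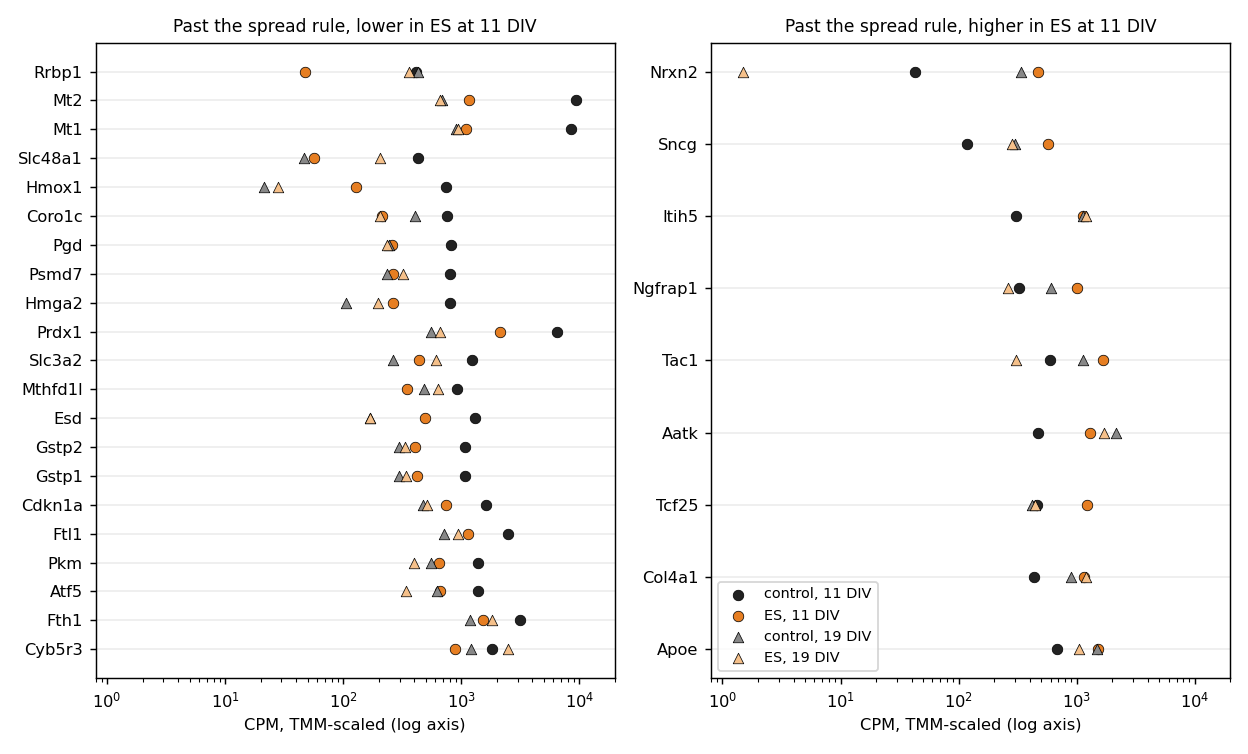
CPM after TMM scaling (horizontal log axis) in each of the 4 libraries for the 21 lower genes (left) and 9 of the higher genes (right) past the spread rule; every point is 1 library. On the left the black control point at 11 DIV lies to the right of the other 3 for all genes but Rrbp1 and Cyb5r3.

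Proteasome and heat shock genes had medians below that of all genes, −0.08, with few members 2-fold lower. Of 15 proteasome subunits at 1000 reads, 3 were 2-fold lower, 0 higher and 12 neither, with a median of −0.58 and the control library highest of 4 in 11. Psmd7, a subunit of the regulatory cap, stood at 806 CPM in control and 263 in ES, and on DIV 19 at 236 and 323, and passed the spread rule with a ratio of 0.326 (0.122 to 0.772). Psma7 and Psmd13, of the core and the cap, had ratios of 0.347 (0.123 to 0.861) and 0.440 (0.127 to 1.31) and did not pass it. Of 17 heat shock and chaperonin genes 2 were 2-fold lower, Ptges3 and Cct6a, 0 were higher, and the median was −0.50. Of all genes 10.6% were 2-fold lower, so the count for this list lay near the background. Hsp90ab1, an abundant chaperone, had 24478 and 15239 reads and a ratio of 0.609 (0.448 to 0.822). Among 14 genes of endoplasmic reticulum folding, 1 was 2-fold higher and 0 lower. That gene, Ppib, had 707 reads in control and 1449 in ES, the same counts as Snx22, which overlaps it on the other strand, so its reads cannot be assigned. Hspa5, the main chaperone of that compartment, was at 0.706 (0.435 to 1.13).

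Ribosomal protein genes were shifted together by less than 2-fold. Of 69 members, 66 were within 2-fold, 2 lower (Rps3a1 and Rps7) and 1 higher (Rpl34), and 58 lay below equality, with a median log2 ratio of −0.42. The control library was the highest of 4 in 54 of them. Summed, they stood at 52353 CPM in control and 39296 in ES, and on DIV 19 at 31442 and 31742. Translation factors had the same median, −0.42 over 24 members, with 2 lower (Eif3c and Btf3) and 1 higher (Eif1b). Tpt1, a translation-associated protein, was at 0.647 (0.478 to 0.871), and Eef2, the elongation factor, at 1.01 (0.709 to 1.43). Rn45s was at 0.543 (0.499 to 0.591) and was the gene with the most reads in both libraries.

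Cell division genes leaned lower in ES. Of 13 members at 1000 reads, 4 were 2-fold lower (Hmga2, Hmga1, Ccnd2 and Smc4), 0 higher and 9 neither, with a median of −0.49. Hmga2, a chromatin protein of fetal and dividing cells, stood at 802 CPM in control and 264 in ES, and on DIV 19 at 106 and 197. It passed the spread rule with a ratio of 0.329 (0.123 to 0.780). Ccnd2, a G1 cyclin, had 2954 and 863 reads, and here both libraries at 19 DIV, with 4622 and 7196 reads, were above the control at 11 DIV. Nes, nestin, a filament of immature glia and progenitors, had 3831 and 1197 reads and a ratio of 0.306 (0.0971 to 0.811).

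Other genes lower by the spread rule had other roles. Rrbp1, a ribosome-binding protein of the endoplasmic reticulum, had 2394 reads in control and 283 in ES, and on DIV 19 2941 and 2872. It was the 1 gene of the 21 for which the ES library at 11 DIV lay at least 2-fold below each of the other 3, and its ratio was 0.116 (0.00611 to 0.649). Coro1c, an actin-binding coronin, stood at 759 CPM in control and 212 in ES, and on DIV 19 at 406 and 206, a ratio of 0.279 (0.0926 to 0.713). Mthfd1l, a mitochondrial folate enzyme, was at 0.373 (0.159 to 0.806), Pkm, pyruvate kinase, at 0.467 (0.254 to 0.833), and Cyb5r3, a cytochrome b5 reductase, at 0.491 (0.292 to 0.807). For Cyb5r3 the ES library at 19 DIV, with 19868 reads, was the highest of the 4.

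Genes of 7 neuronal lists leaned higher in the ES library. Over 7 lists together (pan-neuronal, nociceptor, mechanoreceptor, synaptic, adhesion, ion channel and regeneration genes), 38 genes were at 1000 reads, of which 11 (28.9%) were 2-fold higher and 0 lower, against 8.94% and 10.6% of all genes, and 29 lay above equality. Some of the 38, such as Dpysl2, are also in the axonal cytoskeleton list. With that whole list added, a grouping chosen after seeing the data, 12 of 62 (19.4%) were higher and 2 (3.23%) lower. The spread rule was passed by 3. The control library was the lowest of 4 in 12 of the 38, and the lowest in 19.6% of all genes. Pan-neuronal markers had a median log2 ratio of 0.66 over 12 members, with 3 higher (Dpysl2, Elavl2 and Elavl4), 0 lower and 9 neither.

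Neuropeptide and nociceptor genes held 2 of the 3. Tac1, the precursor of substance P, stood at 588 CPM in control and 1659 in ES, and on DIV 19 at 1131 and 308. The ES library was the highest at 11 DIV and the lowest at 19 DIV, and the ratio at 11 DIV was 2.82 (1.58 to 5.29). Sncg, gamma-synuclein, abundant in sensory neurons, stood at 119, 566, 297 and 283 CPM, a ratio of 4.78 (1.43 to 23.2). Calca, which encodes the peptide CGRP and is the third member at 1000 reads, had 4285 reads in control and 2396 in ES, a ratio of 0.547 (0.241 to 1.18). The 2 peptide precursors thus lay on opposite sides of equality, and only that of Tac1 passed the rule.

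Of 10 neuronal adhesion and guidance molecules, 4 were 2-fold higher (Nrxn2, Nrp1, Cadm4 and Cntn1), 0 lower and 6 neither, with a median log2 ratio of 0.76. Nrxn2, a neurexin that joins presynaptic to postsynaptic membranes (protein-coding, chr19:6418756-6533217 in GRCm38.p6), had 248 reads in control and 2800 in ES, and on DIV 19 2336 and 12. The low libraries were thus control at 11 DIV and ES at 19 DIV, and the ratio of 11.0 had a wide interval (1.87 to 284). Cntn1, a contactin of axons, was at 2.01 (0.456 to 11.5), Chl1 at 1.76 (0.851 to 3.79) and Ncam1 at 1.09 (0.572 to 2.08). Mapt, the microtubule protein tau, had 1617 and 4378 reads and a ratio of 2.65 (1.12 to 7.0).

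The axonal cytoskeleton as a whole was balanced. Of its 32 members at 1000 reads, 2 were higher, 2 lower and 28 neither, with a median of 0.06. The higher were Mapt and Dpysl2, and the lower were Map1a and Tubb4b. The abundant tubulins Tubb2b, Tuba1a and Tuba1b were at 1.19 (0.852 to 1.67), 0.886 (0.625 to 1.25) and 0.923 (0.628 to 1.35). Genes that injured sensory neurons raise as axons regrow had a median of 0.62 over 11 members, with 1 higher, Sox11, at 2.26 (0.521 to 13.4). Gap43, a growth cone protein, was at 1.90 (0.701 to 5.73) and Jun at 2.0 (0.558 to 8.61). Neither passed a rule. Immediate early genes, which activity switches on for hours, had 5 members at 1000 reads, of which 1 was lower (Ier3, 0.414, 0.134 to 1.12) and 0 higher.

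Trophic factor genes included Ngfrap1 (also Bex3), which binds the neurotrophin receptor p75 and passed the spread rule. It stood at 327 CPM in control and 1010 in ES, and on DIV 19 at 611 and 262, with a ratio of 3.09 (1.43 to 7.38). Bex2, of the same family, was at 2.01 (0.535 to 9.27), and Ngfr, the p75 receptor itself, at 0.951 (0.430 to 2.10). Of the 6 members of that list 2 were higher and 0 lower. Aatk, a kinase of neurons, stood at 468 CPM in control and 1299 in ES, and on DIV 19 at 2136 and 1694, so the control at 11 DIV was the low library. Tcf25, a transcription factor family protein, stood at 464, 1232, 420 and 440 CPM, so there the ES library at 11 DIV was the high one. Their ratios were 2.78 (1.44 to 5.69) and 2.66 (1.37 to 5.48).

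Glial, myelin and lipid synthesis genes also leaned higher in ES, and here the control library at 11 DIV was usually the lowest. The 5 lists were myelin proteins, Schwann cell transcription factors, immature glia markers, cholesterol synthesis, and fatty acid and myelin lipid synthesis. Together they held 39 genes at 1000 reads. Of these 10 (25.6%) were 2-fold higher, 1 (2.56%) lower and 28 neither, against 8.94% and 10.6% of all genes. The cholesterol and the fatty acid list each gave 2 of the higher genes. Some of the 39, such as Cadm4, which was higher, and Jun, also count in the neuronal lists above. The control library was the lowest of 4 in 24, and in 19.6% of all genes. Of 9 myelin proteins, 3 were higher (Cnp, Cd9 and Cadm4), 0 lower and 6 neither, with a median of 0.64, and the control library was lowest in 8. Pmp22, of compact myelin, stood at 317 CPM in control and 494 in ES, and on DIV 19 at 1201 and 979. Its ES library lay between the control at 11 DIV and the libraries of 19 DIV, with a ratio of 1.56 (0.625 to 4.10), below 2-fold. Cnp, an enzyme of non-compact myelin whose exons overlap Dnajc7, and Cd9, a tetraspanin, were at 2.81 (1.00 to 9.40) and 2.36 (0.705 to 9.73).

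Of 8 Schwann cell transcription factors none was 2-fold either way. Id2 was at 1.99 (0.879 to 4.83) and Sox10 at 0.869 (0.433 to 1.73). Among 10 markers of immature Schwann cells and satellite glia, 3 were higher (Apoe, Matn2 and Sostdc1), 1 lower and 6 neither, with a median of 0.51. Apoe, a lipid carrier that satellite glia secrete, stood at 674 CPM in control and 1509 in ES, and on DIV 19 at 1475 and 1035. It passed the spread rule at 2.24 (1.27 to 4.08), with the control at 11 DIV lowest. The member lower was Nes, given above. Of 9 genes of fatty acid and myelin lipid synthesis, 2 were 2-fold higher, 0 lower and 7 neither, with a median of 0.61, and 2 lay below equality. Of 3 cholesterol synthesis genes 2 were higher, and the other, Msmo1, was at 1.00 (0.295 to 3.42). Hmgcs1 and Acat2, of cholesterol synthesis, had 2096 and 1286 reads in control and 4650 and 2862 in ES, ratios of 2.17 (0.99 to 5.11) and 2.18 (0.790 to 6.81). Tecr and Elovl5, which lengthen fatty acids, were at 2.91 (1.05 to 9.56) and 2.0 (0.649 to 7.12), and Scd2 at 1.57 (0.95 to 2.65).

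**Figure D4:**
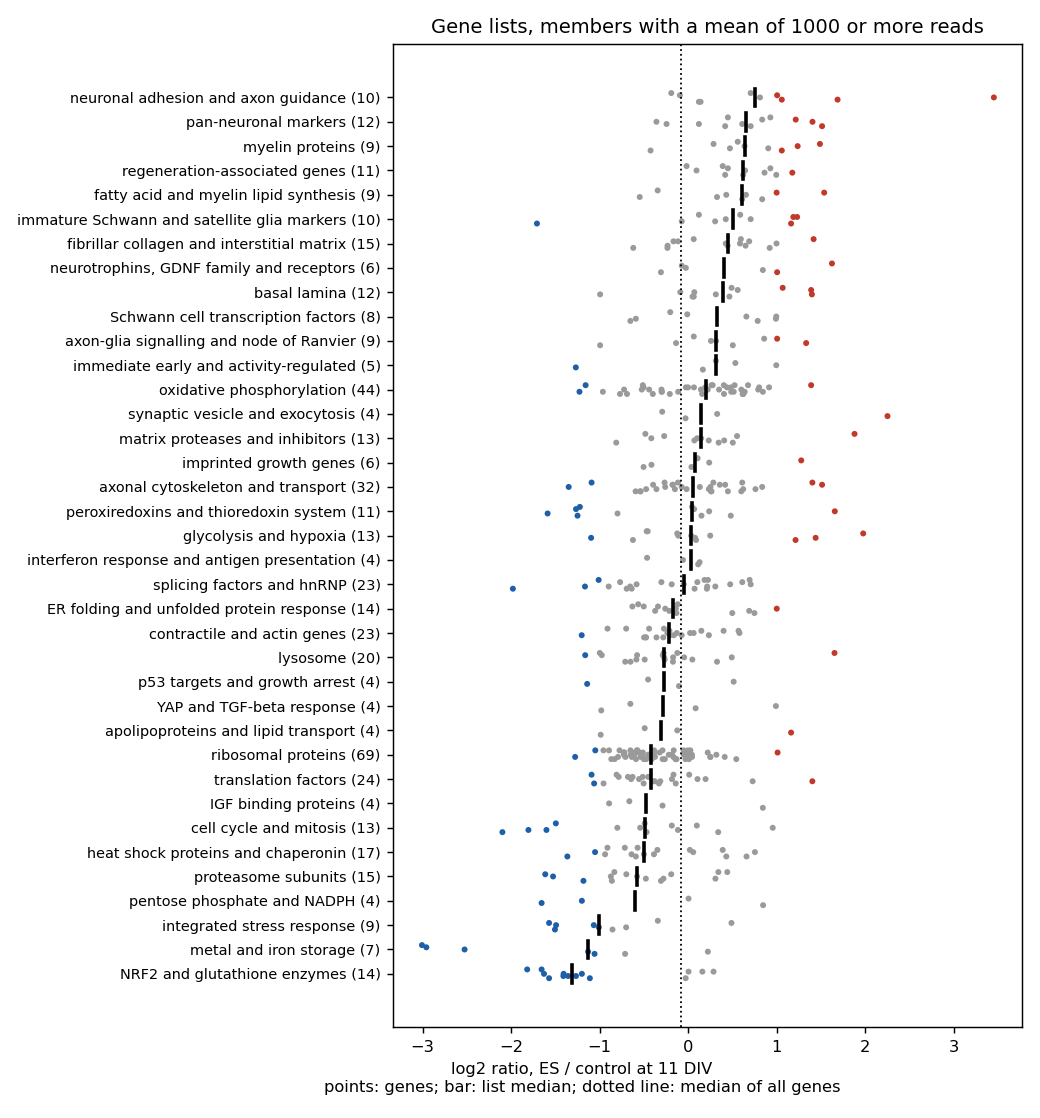
Log2 ratio of ES over control at 11 DIV (horizontal axis) for the members at 1000 or more mean reads of each list with at least 4 of them (number in parentheses), with the list median as a bar; red and blue points are 2-fold higher and lower. The NRF2 and glutathione list lies lowest, with a median of −1.31, and neuronal adhesion highest, with 0.76.

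Few matrix genes were 2-fold higher, and none was 2-fold lower. Over 3 matrix lists together, 5 of 40 genes (12.5%) were 2-fold higher (Col4a1, Lamb1, Lamc1, Itih5 and Col5a1) and 0 lower, against 8.94% and 10.6% of all genes, and the control library was the lowest of 4 in 20. Col4a1, a chain of the type IV collagen of basal laminae, stood at 436 CPM in control and 1148 in ES, and on DIV 19 at 893 and 1204, a ratio of 2.64 (1.33 to 5.59). It meets Col4a2 head to head on the other strand, which had 3256 and 3494 reads. Lamb1, a laminin chain of the same laminae, stood at 311, 815, 994 and 1237 CPM, at 2.62 (1.16 to 6.54). Itih5, a protein that stabilises hyaluronan matrix, stood at 305, 1122, 1120 and 1204 CPM. Its control library at 11 DIV was low and the other 3 were alike, and the ratio was 3.68 (1.69 to 9.01). Of 15 interstitial collagen and matrix genes 1 was higher, Col5a1 at 2.67 (1.07 to 7.54), and Col1a2 and Col3a1 were at 1.5 (1.07 to 2.12) and 0.923 (0.532 to 1.6). The fibroblast markers given above lay on the same side, with a median of 0.52 over 4, and their part in the matrix result was not tested.

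Energy genes showed no common side. Of 44 oxidative phosphorylation genes, 41 were within 2-fold, 2 lower (Sdhb and Ndufa5) and 1 higher, with a median of 0.21, or −0.03 over members with 2000 reads. The higher, Uqcrc2, at 2.62 (0.650 to 14.7), overlaps Pdzd9 on the other strand. Of 13 glycolysis and hypoxia genes 3 were higher (Bnip3l, Aldoc and Higd1a), 1 lower and 9 neither. Pkm was lower, as given above, while Bnip3l, a mitophagy receptor, and Aldoc, an aldolase of the nervous system, were at 3.95 (0.913 to 28.9) and 2.72 (0.618 to 17.6). Of 20 lysosomal genes 1 was higher, the protease Tpp1, and 1 lower, Sqstm1, an autophagy receptor that NRF2 also drives, at 0.446 (0.186 to 0.992). Splicing factors gave 3 lower (Luc7l3, Sf3b2 and Snrpd3) and 0 higher of 23, with a median of −0.05 (0.08 with total counts), and contractile genes 1 lower, Myh9, and 0 higher of 23. No member was 2-fold either way among 4 IGF binding and receptor genes, 4 interferon and antigen presentation genes, or 4 targets of YAP and TGF-beta.

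Of the 10 genes with the most reads, Mt2, Mt1 and Prdx1, given above, were more than 2-fold lower, and the other 7 were within 2-fold. After Rn45s, at 0.543, the nuclear RNA Malat1 had 75229 and 48843 reads, a ratio of 0.635 (0.536 to 0.750). Actb, beta-actin, was at 0.823 (0.680 to 0.995), Sparc, a matrix protein of glia and fibroblasts, at 1.24 (1.00 to 1.54), and Vim, vimentin, at 1.5 (1.12 to 2.02). The rows Akap5 and Lrrc17 had 52835 and 53058 reads in control and differed by under 5% in all libraries, so they may count the same reads. There were 14 such pairs among the 1219 genes. Beyond 5000 mean reads, 4 of 115 genes were 2-fold higher and 10 lower.

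At 19 DIV the same contrast gave other values. The 2 comparisons share no library. Over the 1042 genes with 1000 mean reads at both days, the log2 ratios had a Pearson r of −0.12 and a Spearman rho of −0.088 across genes, which are not independent. Of the 80 genes 2-fold higher at 11 DIV, 4 were higher and 14 lower at 19 DIV, and of the 103 lower at 11 DIV, 9 were lower and 17 higher. Of all 1042 genes, 8.45% were 2-fold higher and 7.49% lower at 19 DIV. Pan-neuronal markers had medians of 0.66 at 11 DIV and −0.80 at 19 DIV, myelin proteins 0.64 and −0.30, NRF2 and glutathione enzymes −1.31 and −0.03, and metal and iron genes −1.13 and 0.35. Basal lamina genes had 0.39 and 0.46, on the same side at both days. The difference between the days was not tested for any list.

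**Figure D5:**
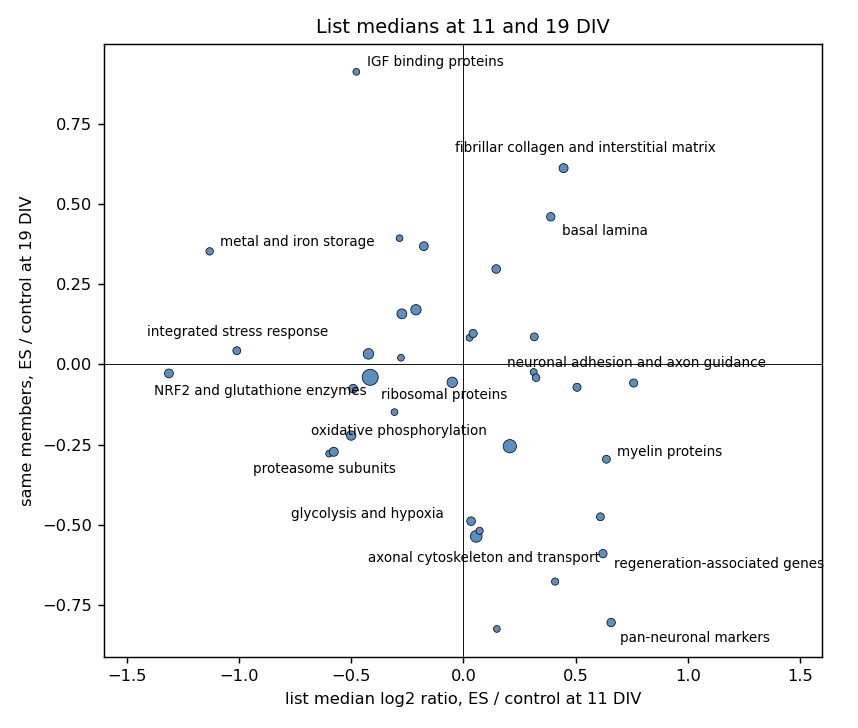
Median log2 ratio of ES over control for each list with at least 4 members at 1000 reads, at 11 DIV (horizontal axis) and for the same members at 19 DIV (vertical axis); larger points hold more genes. The pan-neuronal list lies at 0.66 and −0.80, and the metal and iron list at −1.13 and 0.35.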

How the data were processed

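The authors deposited unnormalized counts of reads for 23282 gene symbols, in a separate table for each library. Per the labels' protocols, 500 ng of total RNA went into each QuantSeq library, a method that reads transcripts at their 3′ ends. Bowtie2, bedtools and the build mm10 are named in the submitters' processing notes. Not given in the sources used here were versions, duplicate handling and strand use. Counts were scaled with TMM (edgeR 4.0.16, R 4.3.3) over the 4 libraries. Log2 ratios carry a prior count of 2. With 1 library per group no test was possible, so calls are rules of size, and intervals cover counting error inflated by the spread factor. The call rules were run on simulated data that had the same spread factor for all genes. That setting cannot check the rules for abundant genes, where the factor was larger. Scalings, read minimums, folds and spread factors were varied, with DESeq2 1.42.0 size factors as 1 scaling. Genes, 51 lists and alternatives were chosen with earlier results of these data known. Named were the 15 genes furthest each way by the nearer interval end, the 10 with the most reads, 2 abundant and 2 far members per list, and a short set of marker genes. Prdx6, Txnrd1, Atf4, Rpl34, Btf3, Elavl4, Map1a, Tubb4b, Smc4, Nrp1, Cadm4, Sostdc1, Lamc1, Ndufa5, Higd1a and Snrpd3 were named after their values were seen, to complete small counts. Not reported here are 4 genes, which were left out of the lists. Coordinates and promoters are RefSeq, GRCm38.p6, matched by symbol for 199 of 200 named genes. The remaining steps ran in Python 3.11.15 (pandas 2.3.3, scipy 1.17.1).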

Additional observations from a re-analysis of the deposited data

Results flagged for a closer look

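In 3 genes, ES lay past the spread rule on 1 side of control at 11 DIV and past it on the other side at 19 DIV, which is all the genes that passed it on both days. The difference between the days was not tested. Tac1 had a ratio of 2.82 at 11 DIV and 0.272 at 19 DIV, with 3407 and 9825 reads in control and ES at 11 DIV and 7795 and 2456 at 19 DIV. Nrxn2 had ratios of 11.0 and 0.00443, the latter resting on 12 reads in ES at 19 DIV against 2336 in control. Cyb5r3 went the other way, with ratios of 0.491 and 2.05, and its highest library was ES at 19 DIV.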

How the results depend on the processing

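Single genes were checked for a change of sign only among 200 named genes, and no gene called 2-fold there changed sign under the alternatives run. Nor did any list median further from that of all genes than the trophic factor median of 0.41. The trophic factor median and some medians nearer to that of all genes did. Over members with 2000 reads, glycolysis went from 0.03 to −0.47, trophic factors from 0.41 to −0.07 and matrix proteases from 0.15 to −0.27. Schwann cell transcription factors went from 0.32 to −0.11 and axonal cytoskeleton from 0.06 to −0.05. YAP and TGF-beta targets went from −0.28 to 0.08. Peroxiredoxins, oxidative phosphorylation and splicing factors, given above, also changed sign. No paired analysis was possible because each group had 1 library, and no replicate could be left out. Under the spread rule, the 21 lower genes became 6 with total counts, 10 with total counts without Rn45s, Mt1 and Mt2, 12 with a spread factor from genes of 1000 to 5000 reads (the higher then 9 of 10) and 5 with a factor per class (the higher then 2). The 6 were Mt1, Mt2, Prdx1, Hmox1, Slc3a2 and Esd. A 95% interval gave 27 higher and 42 lower, a minimum of 5000 reads 4 and 10, and a 3-fold limit 4 and 10. All 10 higher genes were kept under every scaling. By size alone, minimums of 500, 2000 and 5000 reads gave 379 and 393, 23 and 43, and 4 and 10 genes higher and lower. No minimum gave 3580 and 3734, a 1.5-fold limit 227 and 292, and a 3-fold limit 26 and 38. Total counts moved the median of all genes by 0.13 log2 and turned 109 higher and 129 lower into 137 and 96. DESeq2 size factors gave 114 and 119, and total counts without those 3 genes 128 and 108. Of the list medians under alternatives, 317 stayed within 0.25 log2 of the value reported and 21 did not. Depth limits genes with fewer reads, since 37.5% of those with 500 to 1000 reads differed 2-fold.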

Other observations

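Reads of Y-linked genes, looked at after the data were seen, were present in all 4 libraries, so each pool held male cells. Ddx3y, Eif2s3y, Kdm5d and Uty together had 1134 reads in control against 2079 in ES, and on DIV 19 they had 979 and 2439. Ddx3y, an RNA helicase, had 590 and 1408 reads at 11 DIV. Eif2s3y, a translation initiation factor, had 298 and 373. The sex of the explants in each pool is not in the labels, and its part in the results was not tested.

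Several genes outside the lists lay far from equality. Snhg11, a non-coding RNA abundant in neurons, had 629 reads in control and 2767 in ES, and on DIV 19 1372 and 112, a ratio of 4.30 (1.19 to 23.3) at 11 DIV. Rtn1, a reticulon of neuronal endoplasmic reticulum, had 1753, 4641, 2208 and 743 reads and a ratio of 2.59 (1.13 to 6.56). In both, ES was the highest library at 11 DIV and the lowest at 19 DIV, the order of libraries also seen for Tac1. Trib2, a pseudokinase, and Deptor, an inhibitor of mTOR, had ratios of 4.93 (1.16 to 37.9) and 3.81 (1.15 to 17.3). None of these 4 passed the spread rule. Meg3, an imprinted non-coding RNA, belongs to a list, that of imprinted growth genes. It had 1707 and 4235 reads at 11 DIV and 4773 and 1883 at 19 DIV. Of the 6 members of its list at 1000 reads, Meg3 was the 1 that was 2-fold higher. The list had 0 lower and 5 neither, with a median log2 ratio of 0.07.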
